A study of Homo sapiens with 2 samples.

Results

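The interferon-inducible genes *IFI27* and *IFI6* and the paralogs *IFI27L1* and *IFI27L2* were analyzed in HCT116 cells, a human colon cancer cell line, after treatment with decitabine (DAC) or mock treatment. The 4 genes are the members of 1 small family and were taken by their names from the 33538 genes listed in both tables, each of which held every name on 1 row. DAC is a nucleoside drug that, once built into DNA, traps the enzymes that methylate cytosines. Counting from seeding, 0.5 μM of the drug was added on day 1 and again on day 3, drug-free medium was given from day 5, and single cells were taken for sequencing on day 7. Mock-treated HCT116 cells were the other group, and each group was read as 1 library of single cells. Both groups were grown in McCoy's 5A medium with fetal bovine serum. The genes were chosen because of their levels in these libraries, so the differences between the libraries are given as a description, without a test.

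The products of the 4 genes are small hydrophobic proteins of 1 family. Type I and type III interferons bind receptors at the cell surface, and the receptors signal through the kinases JAK1 and TYK2 to transcription factors that bind the interferon-stimulated response element (ISRE) of target promoters. *IFI27* and *IFI6* are well-known targets of this pathway and are often used as readouts of it. IFI6 is known as a mitochondrial and endoplasmic reticulum protein that protects cells from death and restricts some viruses, and IFI27 as a protein of mitochondria and the nuclear envelope. The IFI27L paralogs flank *IFI27* and are less studied. Drugs that lower DNA methylation are known to induce interferon-stimulated genes in cancer cells.

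*IFI27* lies on chromosome 14 of hg38 from 94104836 to 94116695 on the plus strand. *IFI27L1* lies 989 bases before it, from 94081301 to 94103846 on the same strand. *IFI27L2* lies 11083 bases after it, from 94127779 to 94130253 on the minus strand, so that the whole cluster takes 48953 bases. *IFI6* lies on chromosome 1 from 27666064 to 27672212 on the minus strand. The annotated region of *IFI6* overlaps the non-coding gene *LINC02574* on the same strand, for which 0 unique molecular identifiers (UMIs) were counted in mock-treated and 27 in DAC-treated cells. UMIs tag each captured transcript near its poly(A) tail, so that PCR copies are counted once. Among the annotated transcripts of the members, the longest run of identical bases was 31 bases between *IFI27* and *IFI27L2*, 26 bases between *IFI27* and *IFI27L1*, and 11 bases between *IFI27* and *IFI6*.

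Matches to the ISRE were found before the start sites of *IFI27* and *IFI6* but not of the paralogs. The stretches printed here are from RefSeq (GRCh38.p14, the same coordinates as hg38) and run from base -200 to base -61, counted back from the RefSeq start site, 5′ to 3′ in the direction of the gene. They are shown because they hold every ISRE match of *IFI27* and *IFI6* within 250 bases of that site. Capitals mark matches to a core of the ISRE, written as GAAA and GAAA with any 2 bases between them, or as TTTC and TTTC with any 2 bases between them on the opposite strand. The windows are chr14:94110536-94110675 on the plus strand for *IFI27*, chr1:27672253-27672392 on the minus strand for *IFI6*, and chr14:94129665-94129804 on the minus strand for *IFI27L2*, shown for contrast. The window of *IFI27L1* is not printed, as it overlaps the first exon of *DDX24*.
IFI27: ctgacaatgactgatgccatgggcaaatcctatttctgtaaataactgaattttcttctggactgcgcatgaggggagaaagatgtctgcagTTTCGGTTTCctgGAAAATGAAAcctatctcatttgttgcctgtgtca
IFI6: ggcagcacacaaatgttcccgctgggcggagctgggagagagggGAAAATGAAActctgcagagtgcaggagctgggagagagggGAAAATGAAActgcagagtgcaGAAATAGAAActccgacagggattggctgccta
IFI27L2: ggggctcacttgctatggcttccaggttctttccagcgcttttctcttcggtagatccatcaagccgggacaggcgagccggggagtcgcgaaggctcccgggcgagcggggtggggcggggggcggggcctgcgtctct

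Over the 250 bases before the start site, *IFI27* had 2 ISRE matches, on opposite strands, with first bases at -108 and -95, and *IFI6* had 3, at -156, -115, and -93. *IFI27L1* and *IFI27L2* had 0. At least 1 match was present in 3.02% of the 35116 RefSeq promoter windows of this length, and at least 2 in 0.225%. Of the 43 genes of a list of other interferon-stimulated genes that had a window, 26 held a match in at least 1 of their windows. The GAS element, written as TTCNNNGAA, which reads alike on both strands, matched once in the *IFI27* window and in none of the windows of the other 3 genes, against 6.57% of all windows. In *IFI27* this match runs from the end of the first ISRE match into the start of the second, so that it is not a separate stretch. The number of CpG sites, the sites at which DNA is methylated, was 3 for *IFI27* and 6 for *IFI6*, but 22 for *IFI27L1* and 19 for *IFI27L2*, with a median of 11 over all windows. A second RefSeq start site of *IFI27* holds the same pair of matches and 4 CpG sites. The RefSeq start sites of *IFI27* lie inside the span given by GENCODE, which begins further upstream. The windows before these sites end at 94110735 and 94110814, while the GENCODE span begins at 94104836. Distances between genes are given from the GENCODE spans, so the printed *IFI27* window lies further from *IFI27L1* than 989 bases. These matches are letters in the sequence and were not measured as binding sites, and methylation of these windows was not analysed here.

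The mock-treated library held 1783 cells with a median of 27899 UMIs, and the DAC-treated library held 1751 cells with a median of 35340 UMIs. The DAC-treated library had 1.18 times as many UMIs, and both libraries shared 12 barcodes. Without these barcodes the log2 ratios of the members, DAC-treated over mock-treated, were 7.53 for *IFI27*, 4.09 for *IFI6*, 0.05 for *IFI27L1*, and 0.01 for *IFI27L2*, against 7.55, 4.08, 0.05, and 0.01 with them. All 7 listed epithelial markers were detected in both libraries, at 5056 and 7995 CPM together (UMIs scaled to a common library total), a sum carried by the keratins. *KRT18* was above 2-fold, at a ratio of 2.11, against 19.0% of all genes counted, and *CLDN3* and *CLDN4* were below 0.5, at 0.458 and 0.314, against 7.34%. *EPCAM* was at 0.636, *CDH1* at 0.916, *KRT8* at 1.73, and *KRT19* at 1.07. The 8 listed markers of immune cells, vessels, and fibroblasts summed to 17.2 CPM in mock-treated and 29.7 CPM in DAC-treated cells, and *PTPRC*, *CD3E*, *PECAM1*, and *COL1A2* were at 0 in mock-treated cells with from 9 to 46 UMIs in DAC-treated cells. Their part in the results was not tested. Because only 1 library was available per condition, intervals are exact 95% intervals for counting error only, and a difference between the cultures other than DAC cannot be told apart from the effect of DAC.

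*IFI27* was a rare transcript in mock-treated cells and an abundant one in DAC-treated cells, *IFI6* was also far higher in DAC-treated cells, and the IFI27L paralogs took nearly the same share of the UMIs in both. For *IFI27*, 234 UMIs were counted in mock-treated cells, a level of 4.69 CPM (4.11 to 5.33), and 51804 were counted in DAC-treated cells, a level of 877 CPM (869.8 to 885). The ratio of its CPM, DAC-treated over mock-treated, was 187 (165 to 214). *IFI6* had 1369 UMIs (27.4 CPM, 26.0 to 28.9) in mock-treated and 27376 UMIs (464 CPM, 458 to 469) in DAC-treated cells, a ratio of 16.9 (16.0 to 17.9). *IFI6* was thus the higher of the pair in mock-treated cells and *IFI27* the higher in DAC-treated cells.

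*IFI27L1* had 1150 UMIs in mock-treated and 1407 in DAC-treated cells. Its levels were 23.0 CPM (21.7 to 24.4) and 23.8 CPM (22.6 to 25.1), a ratio of 1.03 (0.956 to 1.12). *IFI27L2*, the most abundant of the 4 genes in mock-treated cells, had 3275 UMIs there and 3900 UMIs in DAC-treated cells. Its levels were 65.6 CPM (63.4 to 67.9) and 66.05 CPM (63.99 to 68.2), a ratio of 1.01 (0.961 to 1.05). For both paralogs the interval of the ratio included 1, which does not show that they were equal, and under median-of-ratios scaling, which lowers every log2 ratio by 0.18, their log2 ratios were -0.14 and -0.17.

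Among the 11452 genes with 100 UMIs or more in mock-treated cells, *IFI27* ranked at place 1 by the ratio and *IFI6* at place 8, while *IFI27L1* and *IFI27L2* ranked at places 6525 and 6770. By UMIs, *IFI27* moved from place 9710 of all genes in mock-treated cells to place 134 in DAC-treated cells, and *IFI6* from place 4044 to place 236. Over the 15146 genes with 50 UMIs or more in both libraries together, 19.0% had a ratio above 2 and 7.34% a ratio below 0.5, and the median log2 ratio was 0.25. Among these 15146 genes, which include genes nearly silent in mock-treated cells, *IFI27* was at place 91 and *IFI6* at place 761. Since the members were chosen for these ratios, the ranks describe them and support nothing further.

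**Figure D1:**
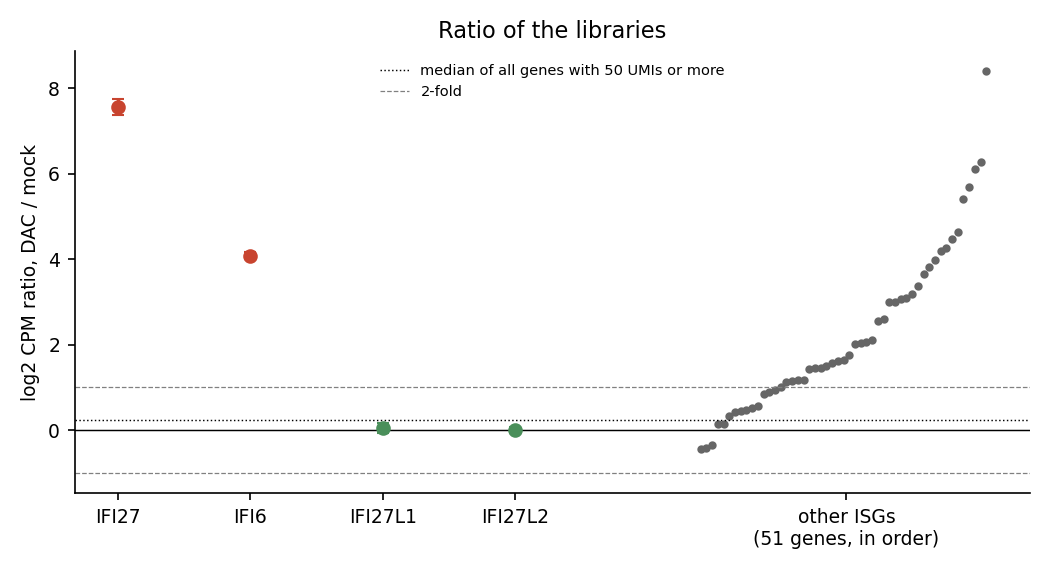
Log2 CPM ratio of DAC-treated over mock-treated cells for the 4 members (points, with exact 95% counting intervals) and for the 51 other interferon-stimulated genes with 50 UMIs or more, in order of their ratio (grey points). *IFI27* was at 7.55 and *IFI6* at 4.08, and *IFI27L1* and *IFI27L2* were at 0.05 and 0.01, below the median of all genes (dotted line, 0.25); dashed lines mark 2-fold.

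At the deposited depth, at least 1 UMI of *IFI27* was present in 156 mock-treated cells (8.75%, 7.48 to 10.2%) and in 1474 DAC-treated cells (84.2%, 82.4 to 85.9%). For *IFI6* the cells were 698 (39.1%, 36.9 to 41.5%) and 1300 (74.2%, 72.1 to 76.3%). With 3 UMIs or more, the limit that the study uses for upregulation, *IFI27* was found in 9 mock-treated cells (0.505%, 0.231 to 0.956%) and in 1111 DAC-treated cells (63.4%, 61.1 to 65.7%), and *IFI6* in 142 (7.96%, 6.75 to 9.32%) and 963 (55.0%, 52.6 to 57.3%). The study took as inducible the genes with at most 2 UMIs in every mock-treated cell. *IFI27* and *IFI6* were not among these, so 3 UMIs or more does not by itself mark upregulation of them in a cell. At 1 UMI or more, *IFI27L1* was detected in 38.6% of mock-treated and 43.1% of DAC-treated cells, and *IFI27L2* in 64.8% and 59.9%. Both paralogs were therefore read in more mock-treated cells than *IFI27*, which nearly all mock-treated cells lacked at this depth.

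The number of UMIs that a cell yields sets these shares, so that they were also computed for an equal number of UMIs drawn from every cell. With 10000 UMIs per cell, 395 mock-treated and 458 DAC-treated cells were too shallow to enter. The expected share of cells with *IFI27* was 3.97% of mock-treated and 82.1% of DAC-treated cells. For *IFI6* it was 22.1% and 73.0%, for *IFI27L1* 19.0% and 19.6%, and for *IFI27L2* 46.3% and 40.5%. For 1007 UMIs per cell, *IFI27* was expected in 0.412% and 41.1% of cells, *IFI6* in 2.62% and 26.6%, *IFI27L1* in 1.96% and 2.11%, and *IFI27L2* in 5.64% and 5.68%. The share of *IFI27L2* was thus lower in DAC-treated cells at 10000 UMIs but not at 1007 UMIs. These shares include cells with more than 50% mitochondrial UMIs. Without those cells, 49.7% of mock-treated and 45.4% of DAC-treated cells had *IFI27L2* among 10000 drawn UMIs, a smaller difference.

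The level of *IFI27* varied widely from cell to cell. Over all DAC-treated cells, *IFI27* had a median of 6 UMIs per cell with quartiles of 1 and 41, and the highest cells had 549, 364, and 339 UMIs. At least 100 UMIs of *IFI27* were present in 149 DAC-treated cells (8.51%). *IFI6* had a median of 3 UMIs, quartiles of 0 and 19, and at most 289. The 176 cells with the most UMIs of each gene, 1 in 10 of the DAC-treated cells, held 48.7% of the *IFI27* UMIs and 52.1% of the *IFI6* UMIs, while the same number of cells chosen by total UMIs held 23.4% of all UMIs.

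The spread beyond sampling was measured as the squared coefficient of variation (CV) in excess of Poisson sampling, in cells with 10000 UMIs or more and at most 50% mitochondrial UMIs (1298 mock-treated and 1120 DAC-treated cells), after 10000 UMIs had been drawn from each. In DAC-treated cells it was 1.29 for *IFI27*, 1.72 for *IFI6*, 0.154 for *IFI27L1*, and 0.415 for *IFI27L2*. In mock-treated cells it was 2.09 for *IFI6*, 0.143 for *IFI27L1*, and 0.0501 for *IFI27L2*. The value of *IFI27* in mock-treated cells, 19.9, rested on 47 cells with a UMI. Single cells decided some of these values. Without the cell with the most drawn UMIs of the gene, mock-treated cells had 5.01 for *IFI27*, 1.28 for *IFI6*, which is below its 1.67 in DAC-treated cells, and 0.0590 for *IFI27L1*. In DAC-treated cells *IFI27L1* was at 0.0167 without its highest cell. *IFI27L2* was at 0.0401 and 0.379 without it, so that its value was the larger in the DAC-treated library with and without that cell. In the drawn cells, 3 UMIs or more of *IFI27L2* were found in 64 DAC-treated cells (5.71%, 4.43 to 7.24%) and in 40 mock-treated cells (3.08%, 2.21 to 4.17%). At least 1 UMI was drawn in 45.4% (42.5 to 48.4%) and 49.7% (46.9 to 52.4%). These intervals cover counting error within 1 library per condition and do not test a difference between the conditions.

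**Figure D2:**
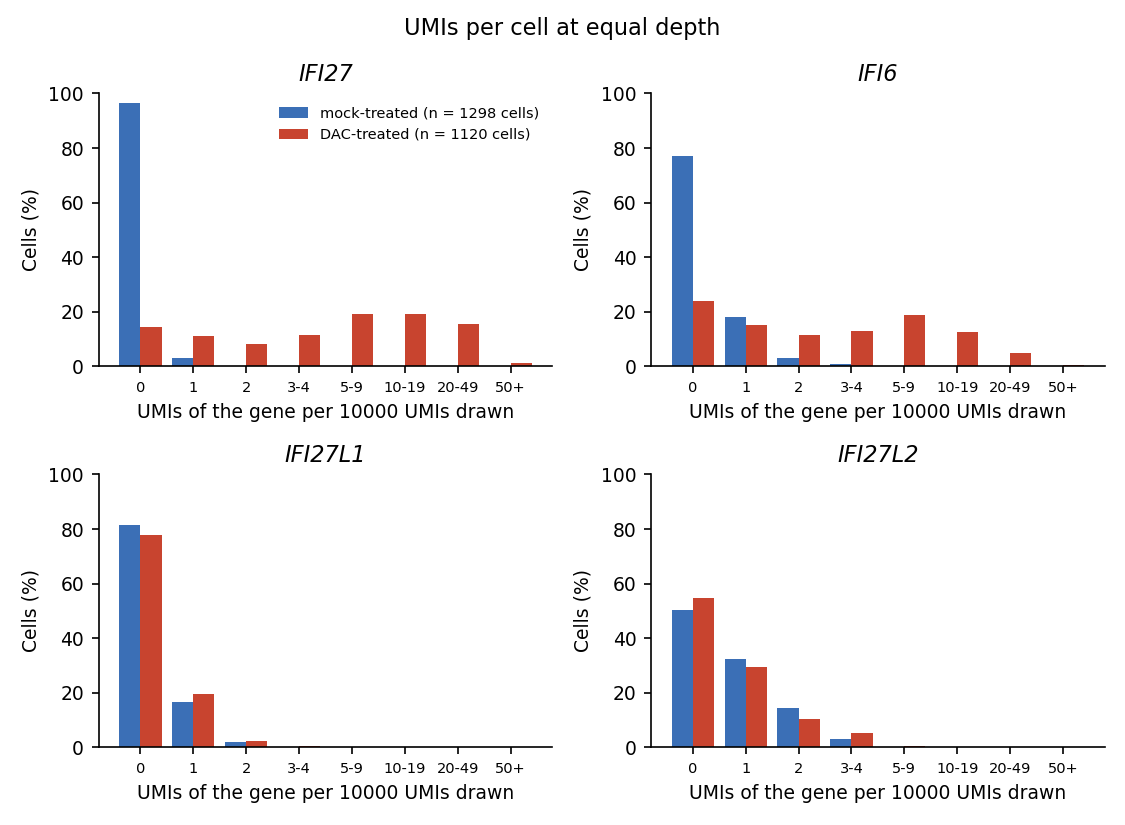
Share of cells (%) by the number of UMIs of each member among 10000 UMIs drawn per cell, in 1298 mock-treated (blue) and 1120 DAC-treated cells (red). At 10 UMIs or more were 402 DAC-treated cells for *IFI27* (35.9%) and 198 for *IFI6* (17.7%), against 0 and 1 mock-treated cells, while the bars of *IFI27L1* nearly coincide.

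Cells with few UMIs carried *IFI27* too. In the 312 DAC-treated barcodes under 10000 UMIs and with at most 50% mitochondrial UMIs, which had a median of 1006.5 UMIs, *IFI27* was at 916 CPM and was present in 62.8% (57.2 to 68.2%). In the 1120 DAC-treated cells with 10000 UMIs or more and at most 50% mitochondrial UMIs, with a median of 47060.5 UMIs, it was at 929 CPM and present in 95.7% (94.4 to 96.8%). *IFI6* was at 219 CPM in the former and at 489 CPM in the latter. In the 319 DAC-treated barcodes with more than 50% mitochondrial UMIs, *IFI27* was at 169.5 CPM and *IFI6* at 159.5 CPM. The number of *IFI27* UMIs per *IFI6* UMI was 4.18 (3.44 to 5.10), 1.90 (1.87 to 1.93), and 1.06 (0.952 to 1.19) in these kinds of barcodes, so that the pair was not kept in a single ratio across them.

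RNA that is free in the droplets can give UMIs of an abundant transcript to any barcode, and the libraries held no cell type that should lack *IFI27*. An even share of *IFI27* in every DAC-treated cell would leave 145 cells without a UMI of it, and 277 had none. For *IFI6* the numbers were 217.6 and 451, for *IFI27L1* 925 and 997, and for *IFI27L2* 527 and 702. A single UMI of *IFI27* was present in 224 DAC-treated cells, and the part of free RNA in these and other low counts was not tested.

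Of the 156 mock-treated cells with *IFI27*, 127 had 1 UMI and 20 had 2. A pair of cells with 26 and 15 UMIs held 41 of the 234 UMIs, and no other mock-treated cell had more than 5. These cells also had 14 and 4 UMIs of *IFI6* and 10 and 9 UMIs of *IFI27L2*. Their share of UMIs from other interferon-stimulated genes was above that of 98.4% and 98.9% of the mock-treated cells. Neither had a barcode shared with the DAC-treated library, and none of the 12 shared barcodes had an *IFI27* UMI in mock-treated cells. Without both cells, the log2 ratio of *IFI27* was 7.82 in place of 7.55.

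*IFI27* and *IFI6* tended to be high in the same DAC-treated cells, and the correlations of the paralogs with them were weak. Across the 1120 DAC-treated cells with equal numbers of drawn UMIs, Pearson's r of log2(1 + UMIs per 10000) was 0.53 for *IFI27* and *IFI6*. With *IFI27*, r was 0.06 for *IFI27L1* and 0.14 for *IFI27L2*. With *IFI6*, r was 0.06 for *IFI27L1* and 0.05 for *IFI27L2*, and between the paralogs it was 0.05. In the 1298 mock-treated cells, r of *IFI27* and *IFI6* was 0.02, with a drawn UMI of *IFI27* in 47 cells (3.62%) and of *IFI6* in 295 cells (22.7%). These values describe cells of a single library, and in counts as sparse as those of the paralogs a weak r is not a finding.

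The same was seen in cells with and without a drawn UMI. *IFI6* was present in 79.0% (76.3 to 81.6%) of the 958 DAC-treated cells with *IFI27*, with a mean of 5.61 UMIs per 10000, and in 59.3% (51.3 to 66.9%) of the 162 cells without, with a mean of 2.58 UMIs. *IFI27* was present in 88.7% of the 853 cells with *IFI6*, with a mean of 11.8 UMIs, and in 75.3% of the 267 cells without, with a mean of 3.48 UMIs. *IFI27L1* was present in 22.7% of cells with *IFI27* and in 20.4% of those without, and *IFI27L2* in 46.2% and 40.7%, with intervals that overlapped. Some DAC-treated cells had 1 gene of the pair without the other among the drawn UMIs, as 201 had *IFI27* without *IFI6* and 96 had *IFI6* without *IFI27*.

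**Figure D3:**
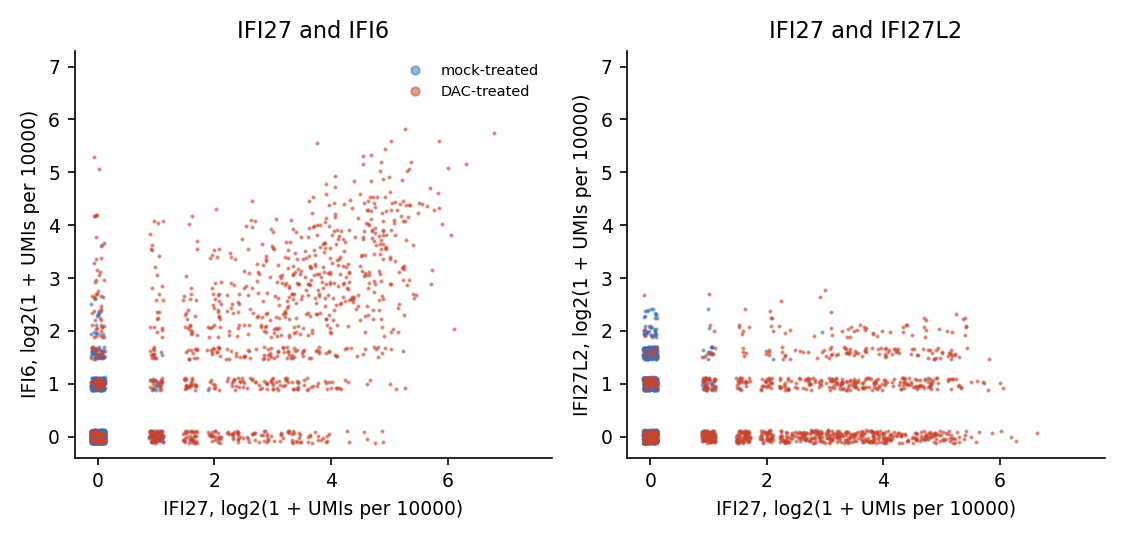
UMIs of *IFI27* against *IFI6* (left) and *IFI27L2* (right) in each cell, as log2(1 + UMIs per 10000 drawn), with a small random shift of each point, for mock-treated (blue) and DAC-treated cells (red). DAC-treated cells spread along an upward band on the left (r of 0.53) and along flat lines on the right (r of 0.14).

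Both interferon-responsive members followed the other interferon-stimulated genes of the same cell. The UMIs of 55 listed genes such as *ISG15*, *MX1*, *IFIT1*, and *OAS1*, without the members, were summed in each cell. Pearson's r with this sum in DAC-treated cells was 0.72 for *IFI6*, 0.57 for *IFI27*, 0.10 for *IFI27L2*, and 0.05 for *IFI27L1*. In mock-treated cells it was 0.20 for *IFI6*, 0.11 for *IFI27*, 0.14 for *IFI27L2*, and -0.04 for *IFI27L1*. Over all cells without drawing, *IFI6* and *IFI27* were nearly alike in DAC-treated cells, at 0.52 and 0.50. In mock-treated cells without drawing, *IFI27L2* was at 0.37, above *IFI6* at 0.29 and *IFI27* at 0.15.

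DAC-treated cells were ordered by this sum and cut into 5 groups of 224. The mean of *IFI27* was 2.84 UMIs per 10000 in the lowest group (2.63 to 3.07), then 5.23, 7.42, and 12.2, and 21.3 UMIs in the highest group (20.7 to 21.9). The mean of *IFI6* was 0.911 UMI in the lowest group (0.790 to 1.04), then 1.72, 3.24, and 6.36, and 13.6 UMIs in the highest group (13.2 to 14.1). Their highest-to-lowest ratios were 7.48 (6.89 to 8.14) and 15.0 (13.0 to 17.3), so that the range of *IFI6* was the wider. *IFI27* was present in 74.1% (67.9 to 79.7%) of the cells of the lowest group, and *IFI6* in 43.3% (36.7 to 50.1%). The ratio of the highest to the lowest group was 1.29 for *IFI27L1* (0.884 to 1.90) and 1.36 for *IFI27L2* (1.09 to 1.71). The corresponding ratios in mock-treated cells were 3.61 for *IFI6* (2.53 to 5.27), 4.68 for *IFI27* (1.90 to 13.8), 0.735 for *IFI27L1* (0.479 to 1.12), and 1.41 for *IFI27L2* (1.15 to 1.74). That of *IFI27* in mock-treated cells rests on 28 drawn UMIs in the highest group, 7 of them from 1 cell, and 6 in the lowest. Its interval does not cover the weight of that cell. *IFI27* in the lowest group of DAC-treated cells was also above its mean in the highest group of mock-treated cells, 0.108 UMI (0.0718 to 0.156).

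**Figure D4:**
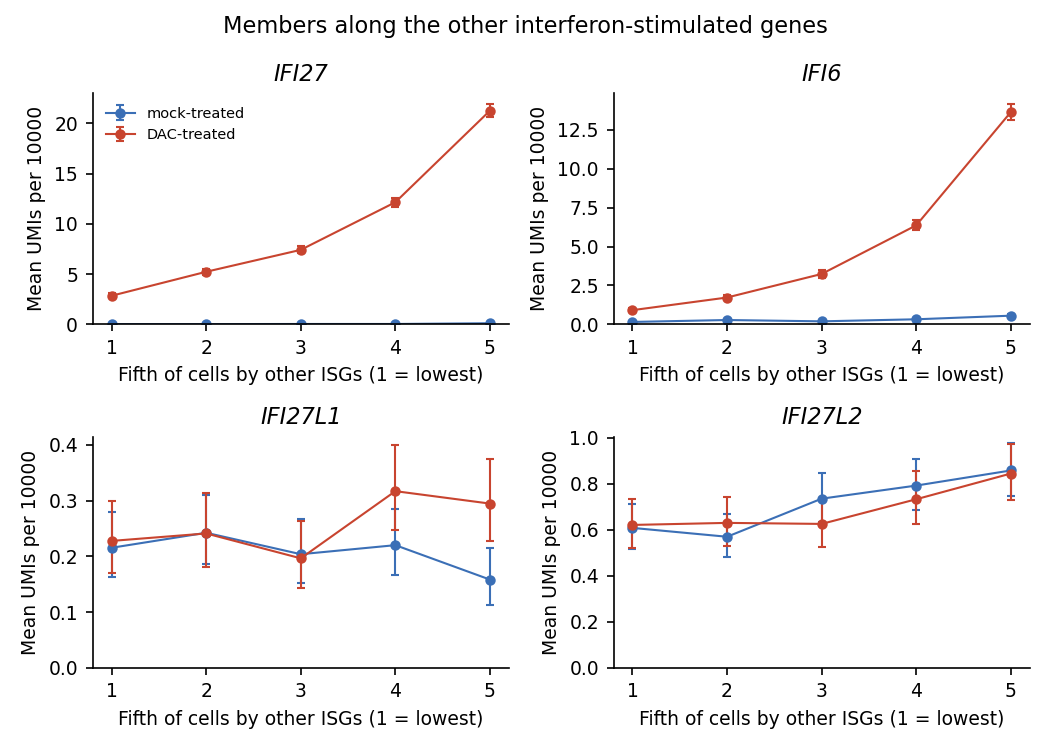
Mean UMIs of each member per 10000 drawn in 5 groups of cells ordered by the summed UMIs of 55 other interferon-stimulated genes, with exact 95% Poisson intervals, for mock-treated (blue) and DAC-treated cells (red). In DAC-treated cells the means of *IFI27* and *IFI6* run from 2.84 to 21.3 and from 0.911 to 13.6, and the lines of the paralogs lie close together.

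The interferon pathway around the members was read from lists of genes. Some of its transducers and sensors, and its regulators *IRF7* and *USP18*, are also in the list of interferon-stimulated genes. Of the 55 other interferon-stimulated genes, 51 had 50 UMIs or more over both libraries, and 37 of them (72.5%) had a CPM ratio above 2 and 0 a ratio below 0.5, against the 19.0% and 7.34% of all genes given above. Their median log2 ratio was 1.65. The highest ratios were those of *XAF1*, a pro-apoptotic gene, at 338 (93.3 to 2797), and of *MX1*, an antiviral GTPase, at 77.2 (45.9 to 142). *OAS2*, an enzyme that activates RNase L, followed at 68.5 (11.9 to 2737, from 1 UMI in mock-treated cells). *MX2*, *IFI44L*, and *IFI44* were at 51.6, 42.3, and 24.7, with 2, 1, and 12 UMIs in mock-treated cells and intervals of 14.0 to 431, 7.25 to 1702, and 14.0 to 48.3. The lowest were *DDX60L* at 0.735, *IFITM2* at 0.752, and *UBE2L6* at 0.790. *XAF1* was thus the only counted gene of the list with a ratio above that of *IFI27*, with intervals that overlapped, and it had 800 UMIs in DAC-treated cells against 51804 for *IFI27*.

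Transcripts of interferons themselves were scarce. Of 8 listed ligands, *IFNB1*, *IFNK*, *IFNG*, and *IFNL3* had 0 UMIs in both libraries, and *IFNA1* and *IFNL2* had 1 UMI each, in DAC-treated cells. *IFNE* had 19 UMIs in mock-treated and 75 in DAC-treated cells, a ratio of 3.34 (1.996 to 5.85), and *IFNL1*, a type III interferon, had 0 and 14 UMIs. A count of 0 does not show absence at this depth. All 6 receptor genes had ratios between 0.5 and 2, as did 11159 of the 15146 genes counted, from 0.722 for *IFNGR1* to 1.36 for *IFNLR1*, with *IFNAR1* at 1.18, *IFNAR2* at 0.824, *IFNGR2* at 1.02, and *IL10RB* at 1.05.

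Among the signal transducers, *IRF9*, a DNA-binding factor of the ISRE, had a ratio of 2.28 (1.97 to 2.64). *STAT2* was at 1.25, *TYK2* at 1.56, *JAK2* at 1.18, and *JAK1* at 0.751. Of 7 regulatory factors and inhibitors, *IRF7*, which drives interferon transcription, was at 8.01 (7.22 to 8.92) and *USP18*, an inhibitor of the receptor, at 3.36 (2.88 to 3.93). *SOCS1*, *IRF3*, *IRF1*, *SOCS3*, and *IRF2* were between 0.781 and 1.83. Of 7 counted sensors of nucleic acids, the RNA sensors *IFIH1*, *DDX58*, and *DHX58* were at 4.30, 4.18, and 3.71, and *TLR3*, *EIF2AK2*, and *MAVS* at 1.85, 1.79, and 1.27. *TMEM173*, the adaptor of DNA sensing also called STING, was at 0.428 (0.374 to 0.490). *ZBP1* had 1 and 3 UMIs, and 1 listed sensor was not found under its listed name. Among 10 housekeeping genes, 2 were above 2, *ACTB* at 2.13 and *TUBB* at 2.53, and 0 below 0.5, near the 19.0% and 7.34% of all genes.

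The genes whose pattern across DAC-treated cells was most like that of *IFI27* were *IFI6* (r of 0.53), *ISG15* (0.46), *IFITM3* (0.37), *IFIT1* (0.31), *B2M* (0.31), *LGALS3BP* (0.30), *BST2* (0.29), and *HLA-B* (0.28). They were the 8 highest of 12010 genes with a UMI in at least 2% of the 1120 drawn cells, over which the median r was 0.00. For *IFI6* they were *ISG15* (0.60), *IFI27* (0.53), *IFITM3* (0.47), *BST2* (0.46), *IFIT1* (0.45), *B2M* (0.44), *LGALS3BP* (0.42), and *HLA-C* (0.42). Of these genes, *IFITM3*, *B2M*, *LGALS3BP*, *HLA-B*, and *HLA-C* had log2 ratios between the libraries of 0.15, 0.21, 0.44, 0.48, and 0.20, against the median of 0.25 over all genes, and with median-of-ratios scaling that of *IFITM3* was below 0. *B2M*, *HLA-B*, and *HLA-C* encode parts of the class I complex that presents antigens. For *IFI27L1* the highest were *TBC1D2* (0.12), *AKR1A1* (0.12), and *EBLN2* (0.12), and for *IFI27L2* they were *S100A6* (0.15), *ATP5MD* (0.15), and *IFI27* (0.14). *IFI27L2* was at place 73 for *IFI27* and at place 1964 for *IFI6*, and *IFI27L1* at places 961 and 1195.

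Most neighbors of *IFI27* on the chromosome did not share its ratio. Of the 5 nearest protein-coding genes on each side of the cluster, 5 had 50 UMIs or more over both libraries, and 1 of them had a ratio above 2, against 19.0% of all genes. With so few genes, this share is no result about the locus. The gene was *ASB2*, with 3 UMIs in mock-treated and 107 UMIs in DAC-treated cells, a ratio of 30.1 (10.0 to 148.5). *DDX24*, which starts 98 bases from *IFI27L1* on the opposite strand, had 5681 and 13284 UMIs, a ratio of 1.98 (1.92 to 2.04), against 1.03 for *IFI27L1*. *OTUB2* was at 1.61, *PPP4R4* at 0.621, and *SERPINA1* at 0.691. *FAM181A*, *CCDC197*, *SERPINA10*, *SERPINA6*, and *SERPINA11* had from 0 to 6 UMIs in either library. *IFI27* thus stood between paralogs with ratios of 1.03 and 1.01.

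Around *IFI6*, 9 of the 10 nearest genes were counted, and 1 was above 2 and 1 below 0.5, against 19.0% and 7.34% of all genes. *GPR3* was at 2.19 (1.58 to 3.06) from 53 and 137 UMIs, and *CD164L2* at 0.366 (0.305 to 0.437). *AHDC1*, *THEMIS2*, *RPA2*, *STX12*, *FAM76A*, *PPP1R8*, and *WASF2* were between 1.04 and 1.73, and *FGR* had 0 and 4 UMIs.

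**Figure D5:**
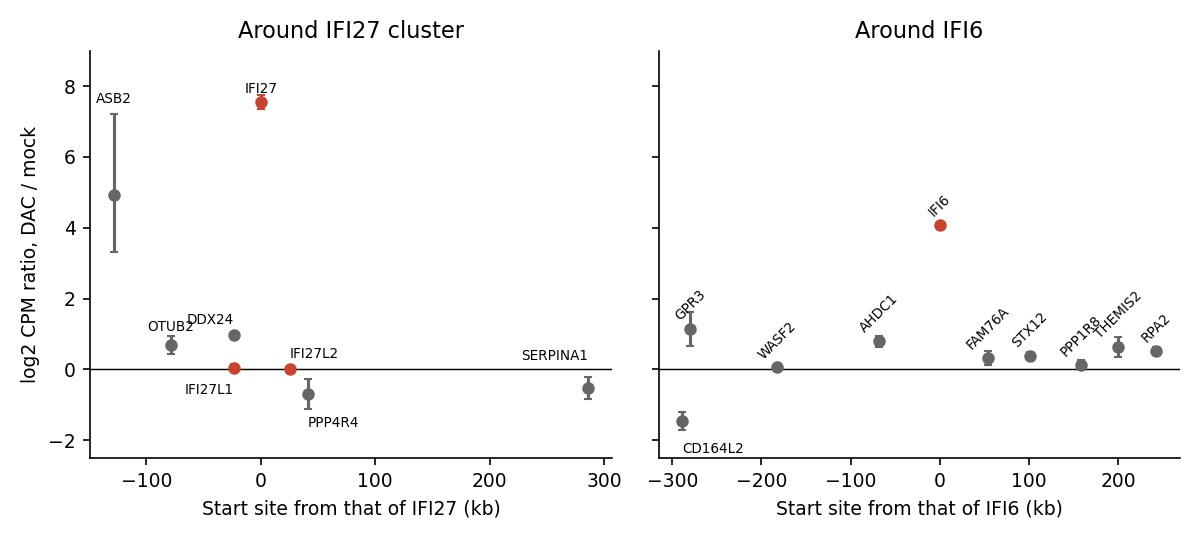
Log2 CPM ratio of DAC-treated over mock-treated cells, with exact 95% counting intervals, against the distance (kb) of each gene's start from the start of *IFI27* (left) or *IFI6* (right), for members (red) and protein-coding neighbors with 50 UMIs or more (grey). *IFI27* at 7.55 stands above its neighbors, of which *ASB2*, at 4.91 from 3 mock-treated UMIs, is the highest. *IFI6* at 4.08 stands above its own neighbors, of which *GPR3*, at 1.13, is the highest.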

How the data were processed

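Single-cell libraries were prepared by the study with a Chromium 3′ v3 kit from DAC-treated and mock-treated HCT116, 1 each. According to the study's methods, Cell Ranger was run on the reads with hg38, and the authors deposited its raw UMI counts, with genes in rows and cells in columns. The tables held 1783 and 1751 cells, the numbers that the study states. The annotation release and any filter on cells are not given in the sources used here. Here, counts were summed over cells, scaled to library totals (CPM), and given with exact Poisson, Clopper-Pearson, or conditional 95% intervals. No test was made, since cells of 1 library are not replicates. A library at 0 was set at 3 counts for ratios. All deposited cells entered the levels and ratios. Cells under 10000 UMIs were left out of shares at that depth, and those or cells over 50% mitochondrial UMIs (485 mock-treated and 631 DAC-treated) out of the squared CV, correlations, and groups. Doublets were not called, because doublets of 1 cell line carry no marker. UMIs were drawn without replacement. Equal-depth shares are expected values, and correlations use 1 random draw of 10000 UMIs. Python 3.11.15, numpy 2.4.6, scipy 1.17.1, and pandas 2.3.3 were used, positions came from GENCODE release 44, and promoter windows from RefSeq (GRCh38.p14, all 4 members matched). The computations were tested on simulated data. Members, gene lists, and tests were chosen with earlier results of these data known. The genes named were the members, the 6 highest and 3 lowest of the interferon-stimulated list, the other listed pathway genes (1 transducer is not reported here), the 5 nearest neighbors on each side, and the 8 or 3 genes most correlated with a member. Alternatives were other scalings, depths, cell filters, thresholds, and draws. Leaving out the shared barcodes and the 2 mock-treated cells with the most *IFI27*, and the cell with the most drawn UMIs from the squared CV, was chosen after seeing the data.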

Additional observations from a re-analysis of the deposited data

How the results depend on the processing

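With 1 library per condition, every value is a description of these libraries. Of 96 values under alternatives, 49 moved beyond their counting interval or, for the squared CV and counts of genes, a fixed margin. The log2 ratios of *IFI27* and *IFI6* kept their sign throughout. The log2 ratio of *IFI27* was 7.78 as a mean of per-cell CPM and 7.82 without the 2 mock-treated cells with the most *IFI27*, the latter chosen after seeing the data. That of *IFI6* was 3.90 with median-of-ratios scaling and 3.97 as a mean of per-cell CPM. *IFI27L1* was at -0.14 and 0.31 under these, and *IFI27L2* at -0.17 with median-of-ratios scaling and -0.03 without the 5% of cells with the most UMIs, so that both paralogs changed sign from values whose intervals include 0.

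The shares of cells with a UMI depend on depth and on the number of UMIs required. With 1007 UMIs per cell, the 10th percentile, they were 0.412% of mock-treated and 41.1% of DAC-treated cells for *IFI27*, 2.62% and 26.6% for *IFI6*, 1.96% and 2.11% for *IFI27L1*, and 5.64% and 5.68% for *IFI27L2*. With 10000 UMIs they were 3.97% and 82.1% for *IFI27*, 19.0% and 19.6% for *IFI27L1*, 46.3% and 40.5% for *IFI27L2*, and 22.1% of mock-treated cells for *IFI6*. At 3 UMIs or more they were 0.505% and 63.4%, 7.96% and 55.0%, 6.45% and 8.97%, and 30.8% and 32.8% for *IFI27*, *IFI6*, *IFI27L1*, and *IFI27L2*. Without cells under 10000 UMIs or over 50% mitochondrial UMIs they were, in the same order, 11.6% and 95.7%, 52.0% and 92.4%, 51.4% and 62.8%, and 85.9% and 86.5%.

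Over all cells without drawing, r in DAC-treated cells was 0.17 for *IFI27L1* with *IFI27L2*, 0.17 for *IFI6* with *IFI27L2*, 0.12 for *IFI6* with *IFI27L1*, and 0.12 for *IFI27* with *IFI27L1*, which was 0.10 in another draw. For *IFI27* with *IFI27L2* it was 0.19 without drawing and 0.10 in another draw, against 0.14. In mock-treated cells r of *IFI27* with *IFI6* was 0.13 without drawing, against 0.02. With the summed other interferon-stimulated genes, r without drawing was 0.52 for *IFI6*, 0.50 for *IFI27*, 0.21 for *IFI27L2*, and 0.11 for *IFI27L1* in DAC-treated cells. In mock-treated cells these values were 0.29, 0.15, 0.37, and 0.11 in the same order. Without the 3 listed genes with the most UMIs, *ISG15*, *IFITM3*, and *LY6E*, the ratio of the highest to the lowest group was 6.47 for *IFI27* and 12.3 for *IFI6*. The squared CV of *IFI27L1* in DAC-treated cells was 0.232 at 20000 UMIs and 0.0167 without its highest cell, and in mock-treated cells, without the highest cell of each gene, it was 5.01 for *IFI27*, 1.28 for *IFI6*, 0.0590 for *IFI27L1*, and 0.0401 for *IFI27L2*. The cause of these shifts was not tested. The count of other interferon-stimulated genes above 2-fold was 34 with median-of-ratios scaling and 41 with a minimum of 1 UMI, against 37, and 40 were above 1.5-fold. No paired analysis was possible because each condition had 1 sample.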

Other observations

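Genes with at most 2 UMIs in any mock-treated cell were summed in each DAC-treated cell, without the members and the listed interferon-stimulated genes, an analysis chosen after the data were seen. Over these 14083 genes and 1120 cells at 10000 drawn UMIs, Pearson's r with the sum was 0.16 for *IFI27*, 0.08 for *IFI6*, 0.08 for *IFI27L1*, and 0.07 for *IFI27L2*. For the summed other interferon-stimulated genes it was 0.12. *IFI27* and *IFI6* themselves were not among such genes, since single mock-treated cells had up to 26 and 33 UMIs of them.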
